A study of Mus musculus with 10 samples.

Results

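The matrix metalloproteinases (MMPs), the tissue inhibitors of metalloproteinases (TIMPs), the ADAMTS proteases and the ADAMTS-like proteins were examined in lens epithelium from mice whose lenses overexpress active TGF-β1. Members were taken by gene symbol alone: Mmp, Adamts or Adamtsl followed by a number, or Timp1 to Timp4. The rule found 49 of the 50763 genes in the count table, namely 21 MMPs, 4 TIMPs, 19 ADAMTS proteases and 5 ADAMTS-like proteins. The rule itself uses no expression value, but it was chosen with earlier results of these data known. Outside the rule, 3 related symbols (Mmp1a, Mmp1b and Mmp24os1) were not counted.

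MMPs are zinc-dependent endopeptidases that cut collagens, laminins and other matrix proteins, and most are made as inactive proenzymes. TIMPs bind the active site of MMPs and, in the case of TIMP3, also that of several ADAM and ADAMTS proteases. ADAMTS proteases are secreted enzymes with thrombospondin repeats that cut proteoglycans, trim procollagens or act on fibrillin microfibrils, whereas ADAMTS-like proteins share the thrombospondin repeats but have no protease domain. In the eye, fibrillin microfibrils form the zonule that holds the lens, and the lens epithelium lies on the lens capsule, a thick basement membrane.

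All animals were 3 weeks of age, on the FVB/N background, inbred, and drawn from both sexes in equal numbers. The OVE853 and OVE918 lines were homozygous and carried human TGF-β1 in a secreted, constitutively active form, driven by the αA-crystallin promoter of the mouse, which is active in the lens only. WT mice of the same background carried no transgene. The 3 OVE853 libraries each came from a pool of up to 18 epithelial explants of 9 mice, the 4 OVE918 libraries from up to 14 explants of 7 mice, and the 3 WT libraries from up to 9 mice each. The transgenic explants were taken from lenses with an anterior subcapsular plaque, and plaque and surrounding epithelium were not separated. Each library therefore averages several animals, and differences between single animals were not measured.

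Library totals ran from 24073311 to 31908525 counts. The counts of Tgfb1 take in the mouse gene and those reads of the human transgene that map to it, and rose from 54.1 ± 6.38 CPM (counts scaled to a common library size; SD, n = 3) in WT to 348 ± 11.2 (SD, n = 3) in OVE853 and 771 ± 77.7 (SD, n = 4) in OVE918. The lens epithelium markers Pax6, Foxe3, Cdh1, Gja1, Cryaa, Cryab and Six3 were detected in every library, and so were lens fiber markers. The fiber list summed to 34100 to 65400 CPM in WT, 30500 to 48500 in OVE853 and 44700 to 81200 in OVE918. OVE918 replicate 4 was the highest. Macrophage markers summed to 13.9 to 34 CPM in WT, 37.9 to 55.8 in OVE853 and 24.4 to 62.7 in OVE918. WT replicate 3 stood apart: 8 of 8 retinal neuron markers were highest there, at a summed 865 CPM against 88.5 and 106 in the other WT libraries. The corneal epithelium list summed to 1610 CPM there against 236 and 933, nearly all of it from Aldh3a1, while Krt12 reached at most 4.89 CPM. Markers of non-pigmented ciliary epithelium summed to 448 to 692 CPM in WT, 89.5 to 133 in OVE853 and 30.8 to 59.1 in OVE918, and 4 of 4 of them were reduced in both lines. The Müller glia list was also lower, going from 3550 to 5400 CPM in WT to 2070 to 2420 in OVE853 and 2440 to 2930 in OVE918, with 5 and 4 of its 6 genes reduced. Most of that sum came from Dkk3, at 3540, 3040 and 3720 CPM in WT, whereas Rlbp1 was at 29.8, 34.8 and 209 CPM. The corneal epithelium list went from 236 to 1610 CPM in WT to 62.5 to 92.6 in OVE853 and 26.5 to 81.5 in OVE918, with Aldh3a1 reduced in both lines. Of the lens epithelium markers, Gja1 was reduced in both lines, from 510 to 569 CPM in WT to 97.5 to 126 in OVE853 and 55.3 to 79.5 in OVE918. The part of these cells in the results below was not tested. In such bulk libraries, fewer cells of a type and less RNA per cell cannot be told apart.

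Levels were compared between genes per unit of exon length, as length-scaled fragment counts (FPKM). Timp2 was the most abundant member in all 3 groups, with mean levels of 165, 159 and 158 FPKM in WT, OVE853 and OVE918. In WT it was followed by Timp3 at 68.7 FPKM and Adamts18 at 60.5, then by Adamtsl4 at 26.2, Adamts4 at 21.9, Mmp14 at 12.4 and Timp1 at 11.1. Timp1 moved from rank 7 in WT to rank 3 in OVE853 (62.7 FPKM) and rank 2 in OVE918 (105 FPKM), and Timp3 from rank 2 to rank 6 in both lines. The WT spread of Adamts18 is wide, so that its place next to Timp3 in WT is not resolved.

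**Figure D1:**
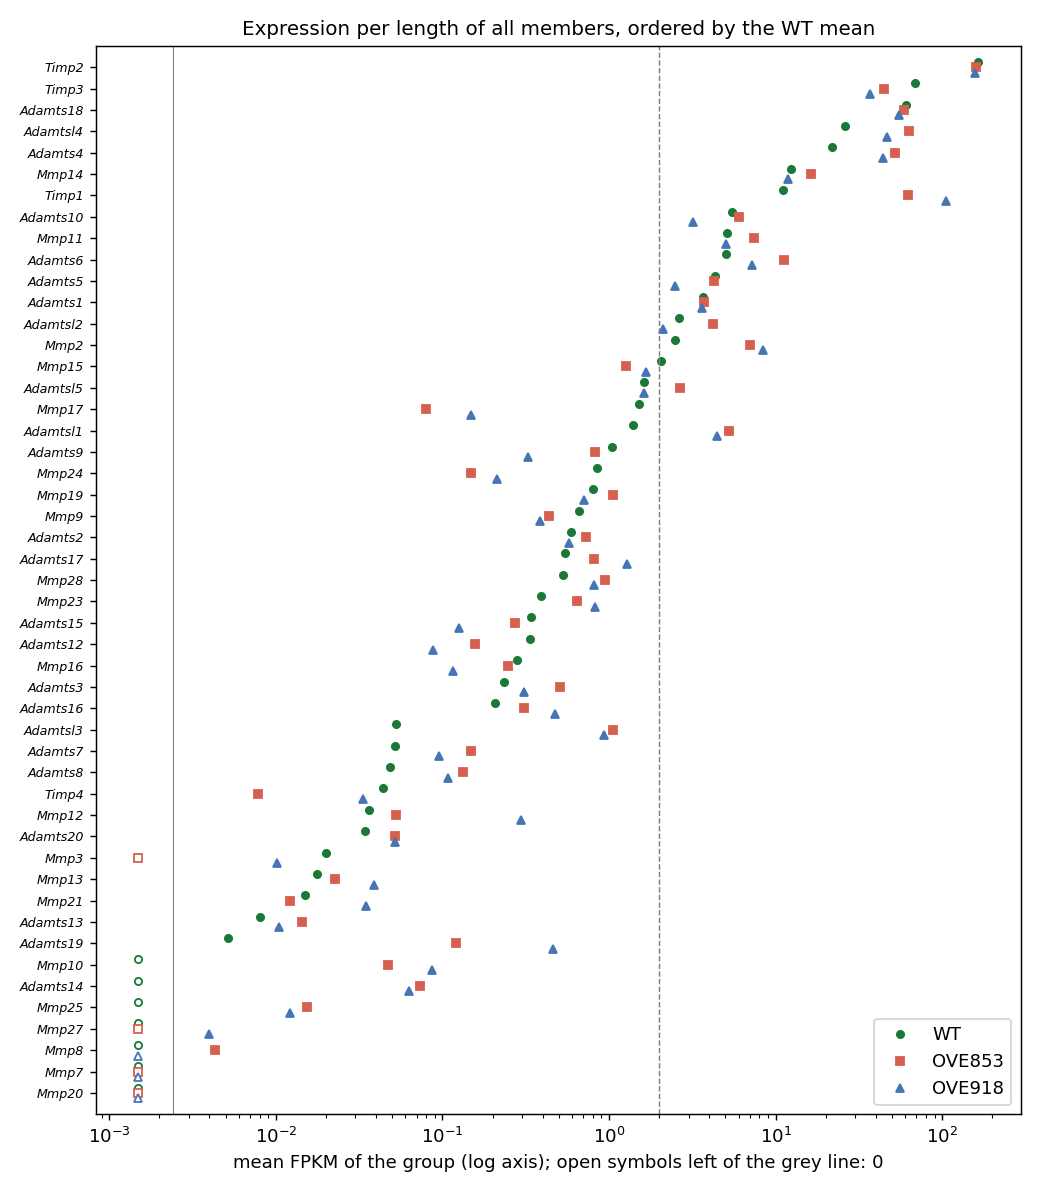
Mean level of each of the 49 members on a log axis in FPKM, with 1 symbol for each group (WT, n = 3, OVE853, n = 3, OVE918, n = 4), members at 0 drawn as open symbols at the left edge and a dashed line at 2 FPKM. Timp2 is at the top in every group near 160 FPKM, the Timp1 symbols are spread from 11.1 to 105 FPKM, and most MMPs lie below 2 FPKM.

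The level was low for most of the family. With the minimum used for testing, 2 FPKM in at least 5 of the 10 libraries, 15 members were tested: 3 of 21 MMPs (Mmp2, Mmp11, Mmp14), 3 of 4 TIMPs, 6 of 19 ADAMTS proteases and 3 of 5 ADAMTS-like proteins. Of these, 10 passed the minimum in all 10 libraries, and Adamtsl1, Adamtsl2, Mmp2, Adamts1 and Adamts5 in 7 to 9. The 8 libraries in which Adamtsl1 passed include all transgenic ones. The other 34 members fell under the minimum, and 23 of them had enough counts to be tested with the more permissive filterByExpr rule of edgeR, which is marked wherever it is used. Of the remaining 11, Mmp7 and Mmp20 had 0 counts in all libraries.

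A gene was called differentially expressed (DEG) when its false discovery rate (FDR) did not exceed 0.05 and its log2 fold change reached 1 in either direction. In OVE853, 6 of the 15 tested members were elevated (Timp1, Mmp2, Adamts4, Adamts6, Adamtsl1 and Adamtsl4) and 0 reduced. Among all 11098 genes tested in this comparison, 2.51% were elevated and 1.91% reduced. OVE918 had 4 elevated members (Timp1, Mmp2, Adamts4 and Adamtsl1) and 0 reduced, beside 2.58% and 3.02% of all genes. These 4 members were elevated in both lines and 0 were reduced in both, beside 1.8% and 1.53% of all genes. A gene high only in the lines could reach the minimum of 5 libraries, but a gene high only in the 3 WT libraries could not. Adamtsl1, with a WT mean of 1.39 FPKM, entered through the transgenic libraries. The minimum thus fixes the counts of elevated and reduced members in part, and they are given as a description. The lines were compared with the same WT libraries, so their calls are not independent of each other. With the FDR alone, 6 members were higher and 1 lower in OVE853 (8.11% and 7.69% of all genes), and 5 were higher and 3 lower in OVE918 (7.99% and 11% of all genes). The libraries of line and WT did not overlap for 7 members that were higher and 2 that were lower in OVE853 (23.4% and 22% of all genes), and for 5 and 3 in OVE918 (12.3% and 14.9% of all genes). The median log2 fold change of the tested members was 0.45 in OVE853 and 0.05 in OVE918, against -0.01 and 0.01 over all genes tested.

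**Figure D2:**
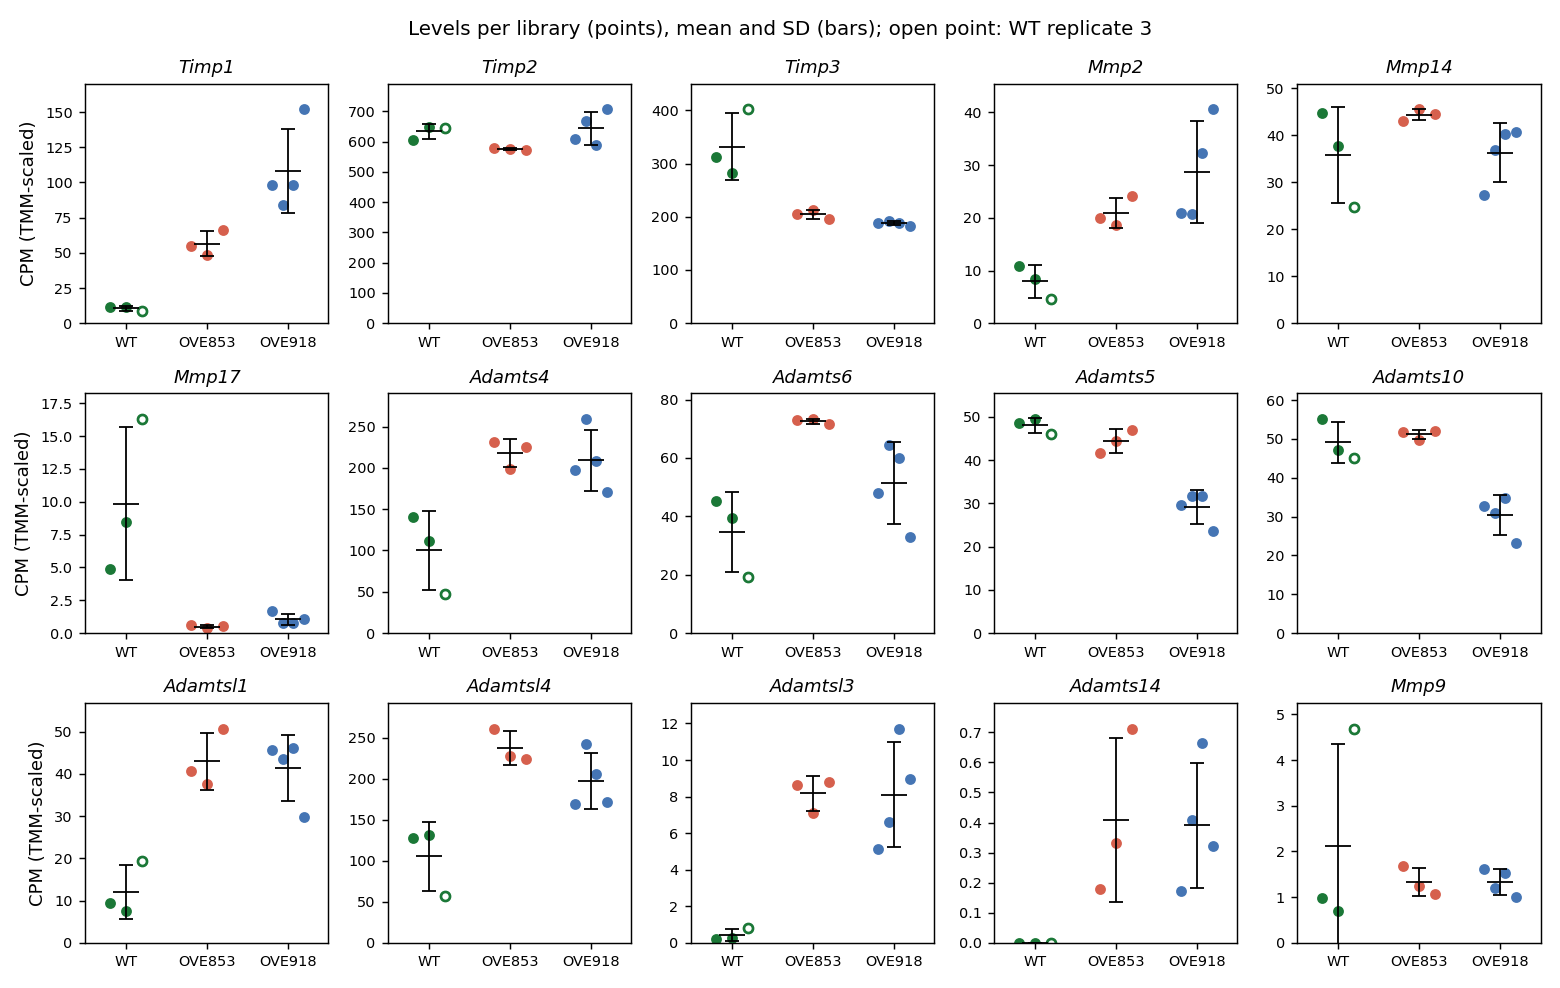
Level of named members in each library, in CPM on a linear axis from 0 (points, 1 per library, with WT replicate 3 open; lines, mean and SD; n = 3, 3 and 4; the WT bar of Mmp9 is cut at 0). All Timp1 points of the lines, 48.3 CPM and above, lie over the WT points, which reach 11.7 CPM, whereas the Timp3 points of the lines, 212 CPM and below, lie under the WT points, which start at 282 CPM.

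Timp1, a secreted inhibitor of most MMPs (GRCm39, chrX:20736316-20740976, plus strand, lying within Syn1 on the other strand), showed the largest elevation of the tested members. Its levels were 11.7, 11.7 and 8.65 CPM in the WT libraries, 55, 48.3 and 66.3 CPM in OVE853 and 98.2, 84.2, 97.9 and 152 CPM in OVE918. None of the 3 groups overlapped with another, and OVE918 replicate 4 was the highest. The log2 fold change was 2.41 ± 0.23 (SE) in OVE853, or 5.3-fold (FDR = 0.000106), and 3.34 ± 0.23 in OVE918, or 10.1-fold (FDR = 6.09e-06). It stayed elevated in both lines when any single library was left out.

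Timp3, the matrix-bound inhibitor that also acts on ADAM and ADAMTS proteases (chr10:86136236-86185371, within Syn3 on the other strand), moved the other way. WT libraries held 312, 282 and 402 CPM, OVE853 libraries 206, 212 and 196, and OVE918 libraries 189, 192, 189 and 183. The transgenic libraries were all lower than the WT libraries. The decrease passed the FDR in both lines but stayed under the minimum fold change, with a log2 fold change of -0.7 ± 0.12 in OVE853 (FDR = 0.00412) and of -0.82 ± 0.11 for OVE918 (FDR = 0.00057). Without WT replicate 3, the highest WT library, the values were -0.55 and -0.67.

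Timp2, which inhibits MMPs and also takes part in the activation of pro-MMP2 by MMP14 at the cell surface (chr11:118191887-118246566), was at 605, 650 and 646 CPM in WT, 578, 575 and 572 CPM in OVE853 and 610, 669, 589 and 707 CPM in OVE918. Its log2 fold change did not pass the test in OVE853 (-0.14 ± 0.1, FDR = 0.336) or OVE918 (0.02 ± 0.09, FDR = 0.892). Because Cep295nl overlaps the gene on the same strand, the counts of Timp2 are uncertain to that extent. Timp4 was close to absent, at 0.105 to 0.401 CPM in WT and 0 to 0.341 CPM in the lines, and was not tested.

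The 2 opposite movements changed the balance between the inhibitors. The ratio of Timp1 to Timp3, in FPKM, was 0.189, 0.209 and 0.109 in the WT libraries, 1.34, 1.15 and 1.71 in OVE853, and 2.62, 2.21, 2.62 and 4.19 in OVE918. Timp3 was thus the more abundant of the pair in all WT libraries and Timp1 in all transgenic libraries. Timp1 made up 3.46 to 5.2% of the summed TIMP level in WT, 20.6 to 26.7% in OVE853 and 29.1 to 41.6% in OVE918. The sum itself was 245 ± 21.4 FPKM (SD, n = 3), 266 ± 18.9 (SD, n = 3) and 299 ± 30 (SD, n = 4), and the ranges of the groups overlapped.

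The promoters of 34 of the 49 members were found in the RefSeq promoter table (build GRCm38.p6, with 250 bases before and 50 after each start). The following are printed for a member that rose in both lines, one that fell, one that rose from a very low level and one from the run of near-silent MMP genes on chromosome 9, with matches to 3 short motifs in capitals: the AP-1 site TGANTCA, the AP-1-like site TGAGTAA and the TATA box TATAAA, each searched on both strands.
Timp1, chrX:20869916-20870215, strand +: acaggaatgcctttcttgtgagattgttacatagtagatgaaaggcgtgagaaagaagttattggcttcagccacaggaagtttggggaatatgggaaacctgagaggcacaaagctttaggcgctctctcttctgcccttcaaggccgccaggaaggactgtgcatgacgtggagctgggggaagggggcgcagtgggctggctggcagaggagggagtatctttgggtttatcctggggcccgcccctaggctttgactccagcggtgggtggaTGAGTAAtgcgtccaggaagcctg
Timp3, chr10:86300162-86300461, strand +: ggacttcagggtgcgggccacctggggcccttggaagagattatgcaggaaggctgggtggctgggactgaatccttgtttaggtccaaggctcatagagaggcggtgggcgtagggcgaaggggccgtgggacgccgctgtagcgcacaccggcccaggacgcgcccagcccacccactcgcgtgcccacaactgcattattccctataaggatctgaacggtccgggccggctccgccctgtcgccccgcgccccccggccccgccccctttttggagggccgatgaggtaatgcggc
Adamtsl3, chr7:82335444-82335743, strand +: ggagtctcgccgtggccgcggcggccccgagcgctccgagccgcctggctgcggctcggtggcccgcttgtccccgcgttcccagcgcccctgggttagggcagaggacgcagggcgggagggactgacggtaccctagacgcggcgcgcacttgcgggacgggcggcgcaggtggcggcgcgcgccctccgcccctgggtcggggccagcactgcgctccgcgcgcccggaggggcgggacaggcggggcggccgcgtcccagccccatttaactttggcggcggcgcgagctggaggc
Mmp13, chr9:7272264-7272563, strand +: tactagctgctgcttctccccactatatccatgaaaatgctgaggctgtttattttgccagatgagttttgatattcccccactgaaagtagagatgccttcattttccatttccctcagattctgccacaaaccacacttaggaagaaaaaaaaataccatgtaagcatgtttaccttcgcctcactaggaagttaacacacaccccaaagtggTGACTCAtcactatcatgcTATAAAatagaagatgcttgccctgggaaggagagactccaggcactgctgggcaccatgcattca
TGAGTAA was present in the Timp1 promoter, and in 2.68% of all 32851 promoters in the table. TGANTCA was found in 6 of the 37 member promoters and in 7.81% of all promoters. These 6 belonged to Mmp3, Mmp7, Mmp10, Mmp12, Mmp13 and Mmp20, all in one run of genes on chromosome 9. TATAAA was held by promoters of 10 members and by 13.6% of all promoters, and the SMAD palindrome GTCTAGAC by 0 member promoters and 0.213% of all. The printed windows of Timp3 and Adamtsl3 hold none of the motifs searched. A match is a description of the letters and not a measured binding site.

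Among the gelatinases, which cut denatured collagen and type IV collagen of basement membranes, Mmp2 was elevated in both lines (chr8:93553902-93580049). Its levels were 10.8, 8.46 and 4.57 CPM in WT, 19.9, 18.7 and 24.2 CPM in OVE853, and 20.9, 20.8, 32.4 and 40.6 CPM in OVE918. The transgenic libraries were all above the WT libraries, of which replicate 3 was the lowest. The log2 fold change was 1.4 ± 0.33 in OVE853 (2.65-fold, FDR = 0.018) and 1.86 ± 0.32 in OVE918 (3.62-fold, FDR = 0.00244). The call in OVE853 was lost without OVE853 replicate 1 (FDR = 0.0571) or replicate 3 (FDR = 0.0732), whereas that in OVE918 held with each library left out.

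Mmp9, the other gelatinase (chr2:164780439-164797771), was under the FPKM minimum. WT libraries held 0.979, 0.689 and 4.68 CPM, OVE853 libraries 1.68, 1.25 and 1.08, and OVE918 libraries 1.62, 1.19, 1.52 and 1.01. The high WT value was that of replicate 3, and the other WT libraries were below all transgenic libraries. With filterByExpr neither comparison passed the test (log2 fold change -0.64 ± 0.59, FDR = 0.477, for OVE853 and -0.64 ± 0.55, FDR = 0.464, for OVE918).

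The collagenases, stromelysins, matrilysin and metalloelastase were nearly silent, Mmp11 excepted. Mmp13, Mmp12, Mmp3, Mmp10, Mmp8, Mmp27, Mmp20 and Mmp7 form a run of 8 members on chromosome 9, from 7272514 to 7699587. Over all 10 libraries together, their counts were 20, 137, 5, 23, 1, 1, 0 and 0. Of the 137 counts of Mmp12, the macrophage metalloelastase, 85 came from OVE918 replicate 4, at 3.9 CPM, where the summed macrophage markers were also at their highest, 62.7 CPM, against 13.9 to 55.8 in the other libraries. The part of macrophages in that value was not tested. Mmp12 did not pass the test in either line with filterByExpr (FDR = 0.86 and 0.114). Mmp11, a stromelysin with an intracellular activation site, gave log2 fold changes of 0.45 ± 0.19 (FDR = 0.124) and 0.05 ± 0.18 (FDR = 0.866).

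Of the 6 membrane-type MMPs, Mmp14 was the most abundant (chr14:54668878-54682821). This collagenase of the cell surface was at 44.8, 37.7 and 24.7 CPM in WT, 43.1, 45.5 and 44.4 CPM in OVE853 and 27.2, 36.9, 40.3 and 40.6 CPM in OVE918. Each line overlapped with WT, and neither OVE853 (log2 fold change 0.31 ± 0.2, FDR = 0.296) nor OVE918 (0.02 ± 0.19, FDR = 0.949) passed the test. The OVE918 libraries were all below the OVE853 libraries, a difference that did not pass (-0.29 ± 0.19, FDR = 0.365).

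Mmp17, a membrane-type MMP held by a lipid anchor (chr5:129661084-129688163), was tested with filterByExpr alone and was reduced in both lines. It was at 4.85, 8.46 and 16.3 CPM in WT, at 0.601, 0.369 and 0.508 CPM in OVE853 and at 1.66, 0.778, 0.74 and 1.06 CPM in OVE918. The groups did not overlap, and WT replicate 3 was the highest. On the log2 scale it fell by 4.29 ± 0.49 in OVE853 (FDR = 0.000417) and by 3.2 ± 0.41 in OVE918 (FDR = 0.000475), and the change was -3.77 and -2.66 without WT replicate 3, still called in both lines. The ciliary epithelium, Müller glia and corneal epithelium lists given above were lower across the same groups and highest in WT replicate 3, and their part in the fall of Mmp17 was not tested. Mmp24, another membrane-type member, was at 9.11 CPM in WT replicate 3 and 0.757 and 1.57 CPM in the other WT libraries, and did not pass the test (FDR = 0.0883 and 0.149).

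In the same filterByExpr fit, Mmp16 fell in OVE918 (log2 fold change -1.18 ± 0.3, FDR = 0.02), and Mmp23 rose there (1.18 ± 0.29, FDR = 0.017). Mmp28, the MMP known as epilysin, was 0.77 ± 0.19 higher in OVE853 (FDR = 0.0251) and 0.73 ± 0.18 higher in OVE918 (FDR = 0.0181), and Mmp15 was lower in OVE853 (-0.77 ± 0.19, FDR = 0.0256), all under the minimum fold change. Mmp25 had at most 6 counts over the libraries of any one group. Mmp19 did not pass in either line, and Mmp21 was not tested. With 1 library left out, the FDR of Mmp28 reached 0.118 in OVE853, where it was missed in 4 of 10 fits, and 0.0508 in OVE918, where it was missed in 1, and that of Mmp15 reached 0.101, missed in 2. The Mmp16 call was lost without WT replicate 1, OVE918 replicate 1 or OVE918 replicate 3.

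**Figure D3:**
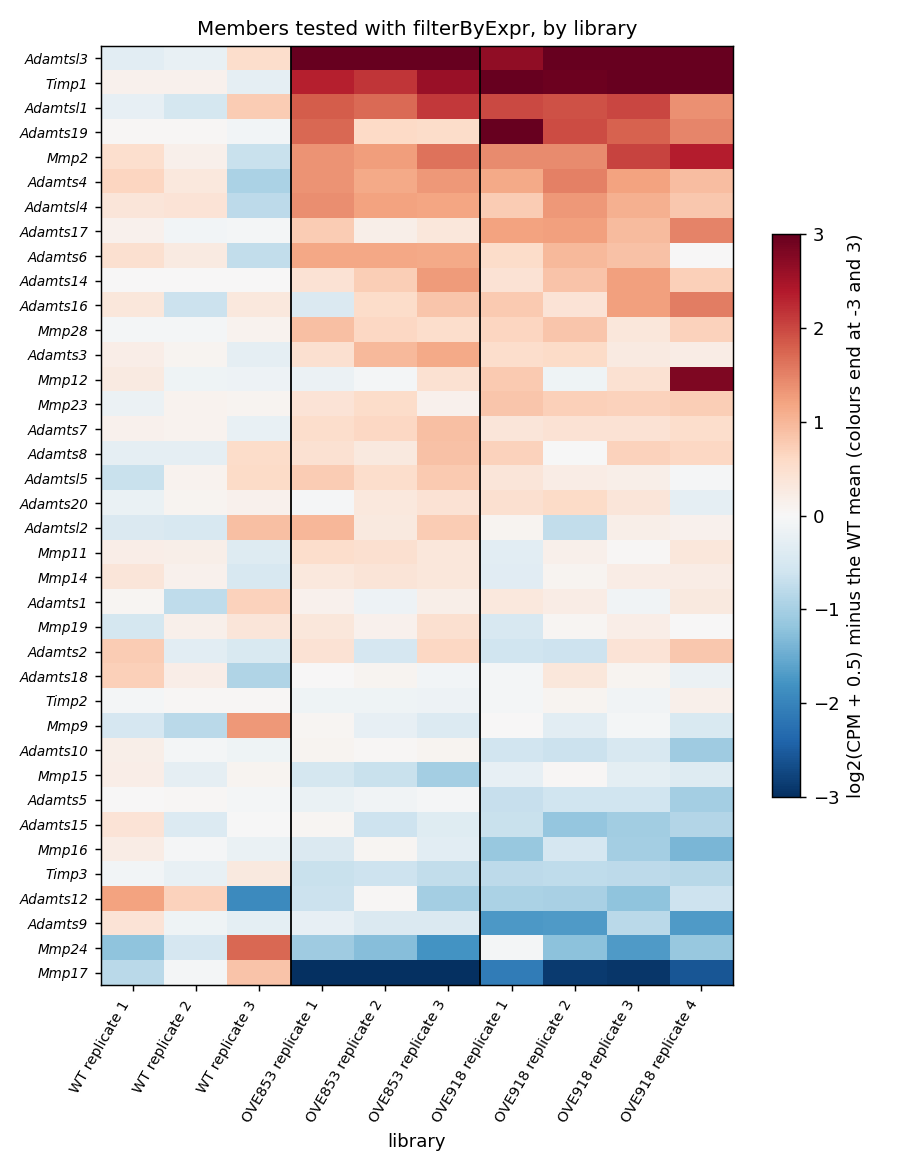
Log2 level of the 38 members tested with filterByExpr in each of the 10 libraries, as the difference from the WT mean of each member. Libraries are in columns and members in rows. Timp1 and Adamtsl3 are lower in the 3 WT columns than in the 7 transgenic columns, Mmp17 shows the reverse, and the WT replicate 3 column departs from the other WT columns for Mmp24 and Mmp9.

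The ADAMTS proteoglycanases cut aggrecan and versican. Adamts4 (chr1:171077986-171089841), an aggrecanase, was at 141, 112 and 46.8 CPM in WT, at 231, 199 and 225 CPM in OVE853 and at 198, 259, 208 and 171 CPM in OVE918. All transgenic libraries were above the WT libraries, and WT replicate 3 was the lowest of the 10. OVE853 differed from WT by 1.13 ± 0.32 on the log2 scale (FDR = 0.0392), and OVE918 by 1.07 ± 0.3 (FDR = 0.0346). Both calls were close to the thresholds. In OVE853 the call was lost in 7 of the 10 fits that left out 1 library and kept without WT replicate 1, OVE918 replicate 2 or OVE918 replicate 4. In OVE918 it was lost in 8 and kept without WT replicate 1 or OVE853 replicate 2. Without WT replicate 3 the log2 fold changes were 0.78 and 0.72.

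Adamts5 (chr16:85653061-85698716), the other main aggrecanase, was lowest in OVE918. WT libraries held 48.6, 49.5 and 46 CPM, OVE853 libraries 41.6, 44.4 and 47.1, and OVE918 libraries 29.7, 31.8, 31.8 and 23.5. The OVE918 libraries were below those of both other groups, which overlapped. Against WT, the log2 fold change of Adamts5 was -0.11 ± 0.12 for OVE853 (FDR = 0.509) and -0.72 ± 0.11 for OVE918 (FDR = 0.00105). Adamts1, a neighbour of Adamts5 on chromosome 16 and also a proteoglycanase, was at 10.1 to 28.4 CPM in WT and 15.5 to 21.7 CPM in the lines, and did not pass the test (log2 fold change -0.07 ± 0.29 and 0.07 ± 0.27). Adamts9 and Adamts15, which both cut versican, passed with filterByExpr in OVE918, where they were lower than in WT (-1.59 ± 0.29, FDR = 0.00357, and -1.31 ± 0.34, FDR = 0.023). For Adamts9, OVE918 replicate 3 held 4.59 CPM and the other OVE918 libraries 2.22 to 2.26. Its call held with each library left out. The Adamts15 call was lost without WT replicate 1, OVE918 replicate 2 or OVE918 replicate 3. Adamts8 and Adamts20 did not pass a test in either line.

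Among ADAMTS proteases that act on fibrillin microfibrils, Adamts6 (chr13:104424343-104633203) and Adamts10 (chr17:33742987-33772758) are close relatives. Adamts6 was at 45.2, 39.4 and 19.2 CPM in WT, 72.9, 73.3 and 71.5 CPM in OVE853 and 48, 64.6, 59.9 and 33 CPM in OVE918. It was elevated in OVE853 (log2 fold change 1.07 ± 0.3, FDR = 0.0393), where no library overlapped with WT, and was 0.57 ± 0.28 in OVE918 (FDR = 0.19), where the groups overlapped. The call was lost in 7 of 10 fits with 1 library left out and kept without WT replicate 1, OVE918 replicate 2 or OVE918 replicate 4, and the value was 0.76 without WT replicate 3, the lowest WT library. Adamts10 was at 55.1, 47.2 and 45 CPM in WT, 51.7, 49.8 and 52.1 CPM in OVE853 and 32.7, 30.9, 34.9 and 23.2 CPM in OVE918. All OVE918 libraries were below the rest, with a log2 fold change of -0.69 ± 0.13 (FDR = 0.00396), while OVE853 gave 0.06 ± 0.14 (FDR = 0.781).

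The procollagen N-proteinases Adamts2, Adamts3 and Adamts14, which remove the amino propeptide of fibrillar procollagens, were all under the FPKM minimum. Adamts14 had 0 counts in the WT libraries and was at 0.18, 0.332 and 0.711 CPM in OVE853 and 0.171, 0.408, 0.666 and 0.321 CPM in OVE918. Against a floor of 3 counts per WT library, its mean was at least 3.47-fold higher in OVE853 and at least 3.33-fold higher in OVE918. These levels rest on 36 and 40 counts over the libraries of each line. The gene entered the filterByExpr fit through 3 transgenic libraries and no WT library, so that it had to differ, and its FDR there (0.0161 and 0.00984) lends the difference no further support. It could be tested in 8 of the 10 fits with 1 library left out, and the FDR in OVE853 was 0.0544 without OVE853 replicate 3. Adamts3 rose in OVE853 (log2 fold change 1.04 ± 0.27, FDR = 0.0311, filterByExpr) and had 0.51 ± 0.26 in OVE918 (FDR = 0.199). The call was lost without WT replicate 2 or 3 or without OVE853 replicate 2 or 3. Adamts2 did not pass in either line.

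Of the remaining ADAMTS proteases, Adamts18, whose loss is known to affect the eye, was the most abundant at 523, 367 and 172 CPM in WT, and at 301 to 338 CPM in OVE853 and 286 to 406 CPM in OVE918. It did not pass the test (log2 fold change -0.14 ± 0.31 and -0.08 ± 0.29), and its WT libraries spanned a wider range than those of both lines. With filterByExpr, Adamts17, linked to short stature with ectopia lentis, rose in OVE918 (1.35 ± 0.21, FDR = 0.00135) and had 0.5 ± 0.22 in OVE853 (FDR = 0.135). Adamts7 rose in OVE853 (1.41 ± 0.39, FDR = 0.0386) and had 0.98 ± 0.38 in OVE918 (FDR = 0.101), and the former call was lost in 6 of 10 fits with 1 library left out, those without WT replicate 2 or 3, any OVE853 library or OVE918 replicate 3. Adamts19 had 2 counts in the WT libraries together, 57 in OVE853 and 259 in OVE918, a ratio of levels of 24.5 (95% interval 6.48 to 207) and 101 (27.6 to 837), where the intervals cover counting error only. It passed in OVE918 (FDR = 0.00524) and not in OVE853 (FDR = 0.0558, and 0.0198 to 0.182 with 1 library left out, where it passed in 1 of 10 fits, that without OVE918 replicate 1). No WT library of Adamts7 or Adamts19 reached the level that filterByExpr asks for, 0.367 CPM. Both entered that fit through the transgenic libraries, where they are high, so these FDRs lend the differences no further support. For Adamts19, OVE918 replicate 1 held 6.86 CPM against 0.964 to 1.56 in the other OVE918 libraries. Adamts12 and Adamts16 did not pass in either line, and Adamts13 was not tested.

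The ADAMTS-like proteins, which lack a protease domain and bind the matrix, held further elevations. Adamtsl1 (chr4:85432409-86346622) was at 9.39, 7.54 and 19.4 CPM in WT, 40.7, 37.5 and 50.6 CPM in OVE853 and 45.6, 43.6, 46.2 and 29.7 CPM in OVE918. All transgenic libraries were above the WT libraries, the highest of which was replicate 3. The log2 fold change was 1.82 ± 0.32 in OVE853 (3.53-fold, FDR = 0.00471) and 1.76 ± 0.3 in OVE918 (3.4-fold, FDR = 0.00264), and the calls held with each library left out. Sh3gl2 overlaps the gene on the same strand, which leaves the counts of Adamtsl1 uncertain to that extent.

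Adamtsl4 (chr3:95583509-95595231), which binds fibrillin microfibrils and whose loss is known to cause ectopia lentis, was at 128, 132 and 56.9 CPM in WT, 261, 228 and 224 CPM in OVE853 and 169, 243, 206 and 172 CPM in OVE918. The lines were above WT in every library. It was elevated in OVE853 (log2 fold change 1.17 ± 0.27, FDR = 0.0178), and in OVE918 it passed the FDR and not the minimum fold change (0.9 ± 0.26, FDR = 0.0343, missed in 5 of 10 fits with 1 library left out). Without WT replicate 3, the lowest WT library, the log2 fold change was 0.85 in OVE853 and 0.59 in OVE918. The call in OVE853 was lost too without OVE853 replicate 1 (FDR = 0.0712) or replicate 3 (FDR = 0.0529), and OVE918 reached the minimum fold change without WT replicate 1 (1.06) or replicate 2 (1.09).

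Adamtsl3 (chr7:81984645-82263658) was under the FPKM minimum and showed, among members with counts in all WT libraries, the largest elevation called in both lines. Its WT libraries held 0.223, 0.268 and 0.803 CPM, OVE853 libraries 8.63, 7.08 and 8.81, and OVE918 libraries 5.16, 6.6, 11.7 and 8.95. No transgenic library came near the WT range. With filterByExpr the log2 fold change was 4.21 ± 0.46 in OVE853 (18.5-fold, FDR = 0.000322) and 4.21 ± 0.45 in OVE918 (18.6-fold, FDR = 0.000148), and it was called in all fits with 1 library left out. It entered that fit through the transgenic libraries, where it is high, since only 1 WT library reached 0.367 CPM. Its call there therefore lends the difference no further support. Adamtsl2, a binding partner of latent TGF-β binding protein, gave 0.59 ± 0.39 (FDR = 0.31) and -0.22 ± 0.37 (FDR = 0.728). Its highest WT library was replicate 3, at 16.8 CPM, and the other WT libraries, at 6.36 and 6.16 CPM, were below all OVE853 libraries. Adamtsl5 did not pass with filterByExpr. The summed level of the 5 ADAMTS-like genes was 31.9 ± 7.18 FPKM (SD, n = 3) in WT, 76 ± 7.81 (SD, n = 3) in OVE853 and 55.9 ± 12.6 (SD, n = 4) in OVE918, mostly from Adamtsl4.

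**Figure D4:**
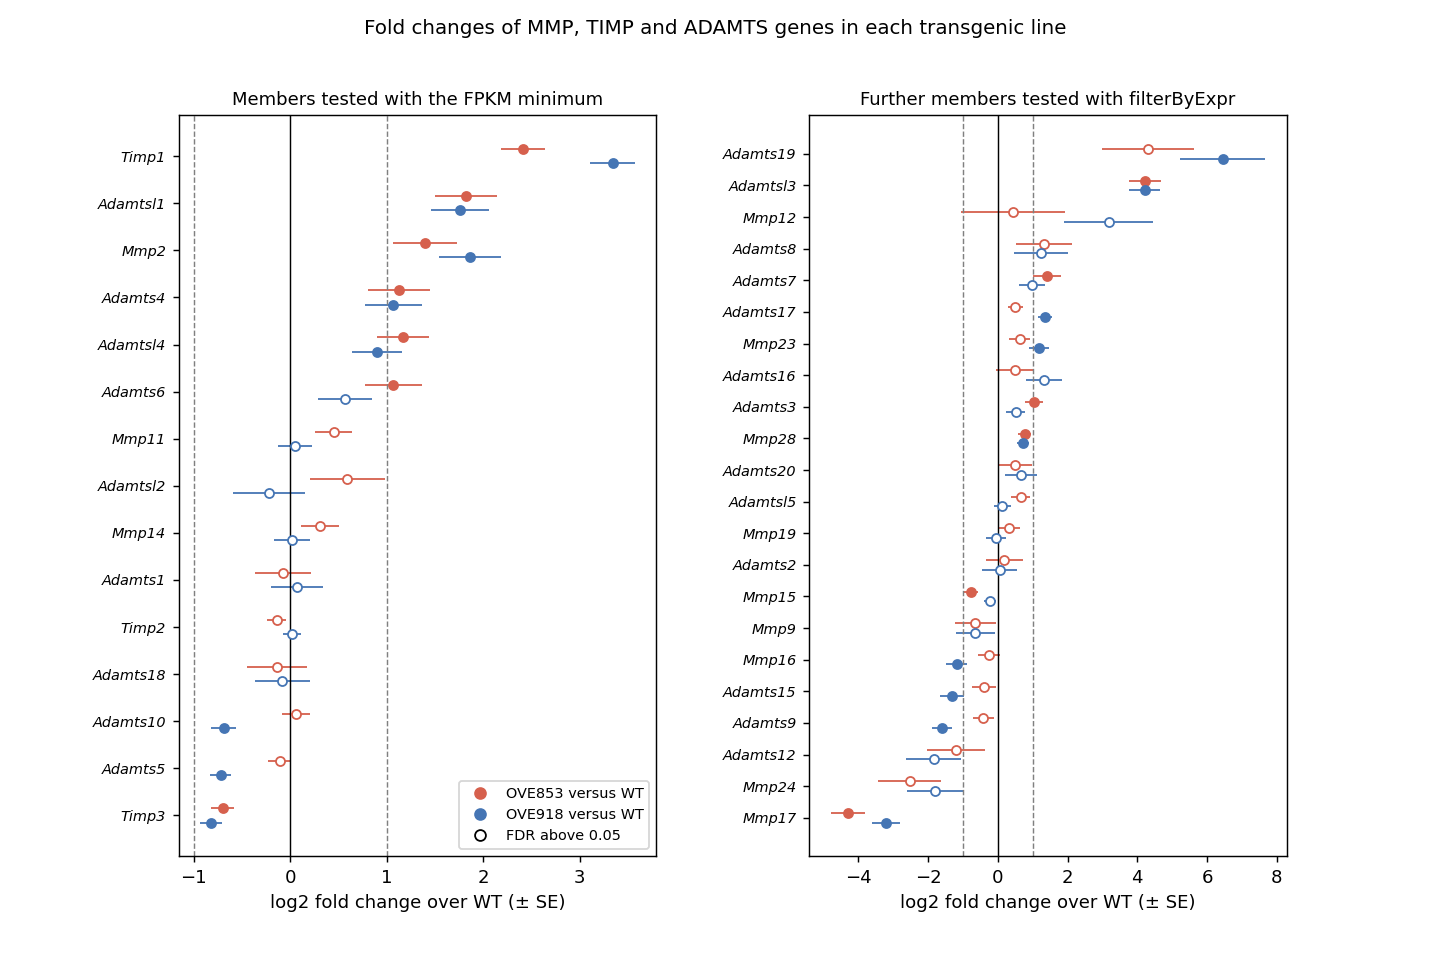
Log2 fold change against WT with its standard error for members in OVE853 and OVE918, for the 15 members tested with the FPKM minimum and those tested with filterByExpr alone, leaving out Adamts14, which had 0 counts in WT (open symbols, FDR above 0.05; dashed lines, the minimum fold change). The values of Adamts19 rest on 2 WT counts. Timp1 (2.41 and 3.34) and Adamtsl3 (4.21 in each line) lie to the right, and Mmp17 (-4.29 and -3.2) to the left.

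With filterByExpr taken over all members, 38 were tested, of which 10 were elevated and 1 reduced in OVE853 and 9 elevated and 4 reduced in OVE918. Of all 18058 genes in that fit, 3.17% were elevated and 3.72% reduced in OVE853, and 3.45% and 5.34% in OVE918. In both lines, 6 members were elevated (Timp1, Mmp2, Adamts4, Adamtsl1, Adamtsl3 and Adamts14) and 1 was reduced (Mmp17), against 2.23% and 2.83% of all genes. With the FDR alone, 11 members were higher and 3 lower in OVE853 (6.54% and 7.02% of all genes), and 11 were higher and 7 lower in OVE918 (6.85% and 10% of all genes). Adamts14, Adamts19, Adamts7 and Adamtsl3 passed this filter through the transgenic libraries, where they are high, so the filter in part fixes these counts of elevated members, which are given as a description. The OVE853 count was the one that moved most: it fell to 3 elevated members without OVE853 replicate 3, to 4 without replicate 2, to 5 without replicate 1 or WT replicate 2, and to 6 without OVE918 replicate 3. The reduced count in OVE853 was 2 without WT replicate 1 or 3, and that in OVE918 was 2 without WT replicate 1 or OVE918 replicate 3.

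The lines were then compared with each other, which tests whether a member responded differently in OVE918 than in OVE853. No member was a DEG: 0 were elevated and 0 reduced by edgeR and by DESeq2. In the edgeR fit 0.0721% and 0.414% of all genes were. An unadjusted p under 0.05 in that fit was held by 4 of the 15 members and by 2539 of all 11098 genes. The libraries of the lines did not overlap for 2 members higher and 6 lower in OVE918 (13.4% and 16.2% of all genes). With the FDR alone, 2 were lower in OVE918 (0.928% of all genes), Adamts5 (log2 fold change -0.6 ± 0.11, FDR = 0.037) and Adamts10 (-0.75 ± 0.13, FDR = 0.0325). Each missed the FDR in 5 of the 10 fits that left out 1 library, those without WT replicate 2, any OVE853 library or OVE918 replicate 1, where it ran from 0.0533 to 0.175 for Adamts5 and from 0.0505 to 0.169 for Adamts10. With filterByExpr the FDR was 0.0515 and 0.0445. Timp1 was higher in all OVE918 libraries than in all OVE853 libraries (0.93 ± 0.2, FDR = 0.0532), just outside the FDR threshold, in a contrast where 0.369% of all genes were higher by the FDR alone. With 1 library left out, its FDR ran from 0.0274 to 0.218 and passed in 2 of 10 fits, those without WT replicate 3 (0.94) or OVE918 replicate 2 (1.04, FDR = 0.0353), and its log2 fold change was 0.73 without OVE918 replicate 4, the highest library. DESeq2 gave an adjusted p of 0.000576 for Timp1, 0.000143 for Adamts5 and 6.79e-05 for Adamts10. For Adamts6, elevated in OVE853 alone, the difference was -0.5 ± 0.28 (FDR = 0.302), so a difference between the lines was not shown. The filterByExpr fit called 0 members elevated and 0 reduced in this contrast (0.0498% and 0.194% of all genes), and 0 members were higher and 1 was lower by the FDR alone (0.105% and 0.271%).

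Other genes of the same pathway were taken from 5 lists: activators of the proteases, other inhibitors and clearance receptors, ADAM proteases, astacin proteases with their enhancers, and ADAMTS substrates. These lists hold 46 genes, and 0 of the 24 that could be tested with the FPKM minimum were called in both lines. Among all genes tested with that minimum, 1.8% were elevated and 1.53% reduced in both. With filterByExpr 40 could be tested, of which 4 were elevated and 3 reduced in each line. Of all genes in that fit, 3.17% were elevated and 3.72% reduced in OVE853, and 3.45% and 5.34% in OVE918. Elevated in both lines were 3 of the 40, Plaur, the urokinase receptor, Adam8, an ADAM protease, and Tll2, an astacin protease. Reduced in both were 2, Papln and Spock3, and among all genes 2.23% were elevated and 2.83% reduced in both. Plaur was at 0.0445, 0.115 and 0 CPM in WT, under the 0.367 CPM that filterByExpr asks for. It entered that fit through the transgenic libraries, where it is high, so its call lends the difference no further support. The genes named here were chosen after their values were seen, and the values that follow are from the fit with the FPKM minimum. A2m, a broad protease inhibitor, was elevated in OVE853 (36.1, 24.8 and 25.9 CPM in WT and 81.3, 77.2 and 69.6 CPM in OVE853, log2 fold change 1.39 ± 0.21, FDR = 0.00193), gave 0.25 ± 0.2 in OVE918 (FDR = 0.414), and was lower in OVE918 than in OVE853 (-1.14 ± 0.19, FDR = 0.0305). Vcan, which encodes the ADAMTS substrate versican, was reduced in OVE918 (159, 72.4 and 117 CPM in WT and 14.9, 18.8, 31.8 and 11.8 CPM in OVE918, -2.58 ± 0.36, FDR = 0.000993) and gave -0.93 ± 0.38 in OVE853 (FDR = 0.118). With the FDR alone, 5 of the 24 genes in that fit were higher and 0 lower in OVE853 (8.11% and 7.69% of all genes). In OVE918, 5 were higher and 4 lower (7.99% and 11% of all genes). Higher in both lines were Htra1, a secreted serine protease (0.91 and 0.95), Bmp1, the procollagen C-proteinase (0.86 and 0.91), and Adam10, a sheddase (0.48 and 0.46). Reck, a membrane-anchored inhibitor of MMPs, was lower in OVE918 (-0.91 ± 0.14, FDR = 0.00107).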

How the data were processed

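Per the labels and the study's methods, mRNA of pooled lens epithelial explants was sequenced. The authors made the deposited table of raw counts per gene with featureCounts 2.0.8 in reverse-stranded mode, from reads trimmed by cutadapt 5.2 and placed on mm39 by STAR 2.7.11b. No normalization had been applied to these counts.

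Groups came from the sample titles. CPM values use TMM factors (0.881 to 1.11). FPKM was computed from exon lengths of GENCODE vM39 by symbol, since the RefSeq lengths of the study were not used here, and 7474 genes had no length. Genes with at least 2 FPKM in 5 of 10 libraries (11098 genes) entered a quasi-likelihood fit in edgeR 4.0.16 (R 4.3.3) with 3 group terms and robust dispersions. P-values were adjusted over all genes tested by the Benjamini-Hochberg method, and SE is the log2 fold change over the square root of F. The fit was tested on simulated data. Alternatives were DESeq2 1.42.0, DESeq2 size factors, other filters, fewer groups, a replicate block, and each library left out in turn. The last 2 were run with filterByExpr too, a choice made after seeing the data, as were the lengths over all transcripts.

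Per-library values are given for members past the FDR in any contrast, for members called in both lines with filterByExpr, and for the TIMPs, Mmp2, Mmp9 and Mmp14. Members, lists and tests were chosen with earlier results of these data known. Libraries of a group are pools of different mice, so p-values measure the spread between pools.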

Additional observations from a re-analysis of the deposited data

Results flagged for a closer look

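Adamtsl1 was singled out for 1 library that lay far from the rest of its group. OVE918 replicate 4 held 29.7 CPM, while the other OVE918 libraries lay between 43.6 and 46.2 CPM, and the gap to the nearest library took up 0.842 of the range of the group, which is above Dixon's 95% critical value for 4 samples. Chance marks about 1 in 20 such groups. Its elevation in OVE918 was called without that library as well. Adamts9, Adamts19 and Mmp12, all under the FPKM minimum, also held 1 OVE918 library far from the others.

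Adamts10 and Adamts5 were singled out because OVE918 and OVE853 differed in the test of the difference itself. The log2 difference, OVE918 over OVE853, was -0.75 for Adamts10 (FDR = 0.0325) and -0.6 for Adamts5 (FDR = 0.037), both under the minimum fold change used for calls. Each missed the FDR in 5 of the 10 fits with 1 library left out, with values up to 0.169 for Adamts10 and 0.175 for Adamts5, and Adamts5 also with filterByExpr (0.0515) and with a replicate block (0.0579). All OVE918 libraries were below all OVE853 libraries for both genes.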

How the results depend on the processing

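DESeq2, DESeq2 size factors, FPKM in 6 libraries and exon lengths of all transcripts left the counts of called members as reported (6 and 4 elevated in OVE853 and OVE918). With filterByExpr, which tests more members, 10 were elevated and 1 reduced in OVE853 and 9 and 4 in OVE918. With no filter beyond 1 count, 1 was reduced in OVE853, and 8 were elevated and 4 reduced in OVE918, while Adamts4 (FDR = 0.135), Adamts6 (0.135), Adamtsl4 (0.0665) and Mmp2 (0.0674) lost their calls in OVE853 and Adamts4 (0.127) in OVE918. With no minimum fold change, 1 was lower in OVE853, 3 in OVE918 and 2 in OVE918 against OVE853. With only the 2 groups compared, 3 were elevated in OVE853, where Adamts4, Adamts6 and Adamtsl4 lost their calls, and 3 in OVE918, where Adamts4 did (FDR = 0.0874). The cause was not tested.

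Leaving out each library in turn gave 2 to 6 elevated members in OVE853, 3 to 5 in OVE918, and 0 to 1 in OVE918 against OVE853. With filterByExpr these ranges were 3 to 10 elevated and 1 to 2 reduced in OVE853, 7 to 10 and 2 to 5 in OVE918, and 0 to 1 reduced between the lines. The count of 2 came without OVE853 replicate 1 or replicate 3. No named member reversed a call.

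Replicate numbers did not pair the libraries: of 9 pairs with the same number, 0 had correlated deviations over 0.1 (-0.323 to 0.0999), and 1 of 9 libraries correlated best with its own number. With a replicate block, Adamts4 lost its call in OVE853 (FDR = 0.0604) and OVE918 (FDR = 0.065), and the elevated filterByExpr count in OVE853 was 5. There Adamts3 (0.069) and Adamts7 (0.0854) lost their calls and Adamts19 gained one (0.00805), and in OVE918 Mmp23 (0.0634) and Mmp16 (0.0554) lost theirs. Between the lines the block gave Timp1 0.73 (FDR = 0.12). The 12 members with at most 3 counts in each WT library are limited by depth.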
